A study of Mus musculus with 6 samples.

Results

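The 6 genes described here encode metallothioneins and proteins that sense or move zinc: Mt1, Mt2, Mtf1, Slc30a1, Slc39a10 and Slc39a14. They were taken by gene symbol from a table of 52459 symbols, and all 6 were found and passed the filter on low counts. RNA was sequenced in bone marrow derived macrophages of C57BL/6 mice, grown in medium with GM-CSF, a growth factor for myeloid cells. On day 7 of culture, 3 samples received vehicle (control) and 3 received Piceatannol, each overnight. Piceatannol is a plant stilbene, a close relative of resveratrol, that inhibits Syk among other kinases. The sources used here give neither its dose nor the nature of the vehicle. Nor do they say that replicates were separate animals or cultures, so p-values reflect only how far these samples spread, and that spread may be technical.

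Metallothioneins are small, cysteine-rich proteins that bind zinc and copper and buffer their free levels. Zinc-loaded MTF-1, the transcription factor encoded by Mtf1, binds metal response elements and is known to activate Mt1, Mt2 and Slc30a1 and to repress Slc39a10. Slc30 (ZnT) proteins move zinc out of the cytosol and Slc39 (ZIP) proteins move it in. In macrophages this system is known for keeping zinc from ingested microbes, and GM-CSF is known to engage it.

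RefSeq promoter windows (GRCm38.p6, 250 bases before to 50 after each transcription start) were listed for 5 of the 6 genes, Slc39a14 being the other. They are shown for the 3 genes with the largest rises, as the 250 bases before the start, 5′ to 3′. Capitals mark matches to the metal response element core, TGCACNC or TGCGCNC on either strand.
Mt1, chr8:94178839-94179088, plus strand: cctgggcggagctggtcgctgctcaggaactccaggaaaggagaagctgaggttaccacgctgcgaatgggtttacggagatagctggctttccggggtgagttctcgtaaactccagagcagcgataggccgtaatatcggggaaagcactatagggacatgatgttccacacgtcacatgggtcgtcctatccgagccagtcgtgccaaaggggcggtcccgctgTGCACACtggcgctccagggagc
Mt2, chr8:94172368-94172617, plus strand: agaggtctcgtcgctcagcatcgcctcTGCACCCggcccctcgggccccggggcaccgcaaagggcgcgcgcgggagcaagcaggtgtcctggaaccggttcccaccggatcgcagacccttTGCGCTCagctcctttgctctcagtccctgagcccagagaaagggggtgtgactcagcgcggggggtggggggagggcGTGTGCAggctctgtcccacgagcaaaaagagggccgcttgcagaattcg
Slc30a1, chr1:191906531-191906780, plus strand: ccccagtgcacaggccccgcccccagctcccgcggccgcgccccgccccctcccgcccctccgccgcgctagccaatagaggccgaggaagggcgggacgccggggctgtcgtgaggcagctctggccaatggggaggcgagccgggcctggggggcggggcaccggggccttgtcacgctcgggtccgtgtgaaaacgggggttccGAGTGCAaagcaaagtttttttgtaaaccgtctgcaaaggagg

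Over the full 300 bases, the Mt2 window held 4 such matches, the Mt1 window 3 and the Slc30a1 window 2. In Mt1, the match that lies before the start begins at position -23 from it, and the others begin after it, at positions 3 and 21. In Mt2, those before the start begin at positions -223, -128 and -50, and the other begins after it, at position 5. Of 32851 mouse windows of the same length, 25.7% held at least 1 match, 7.11% at least 2, 1.97% at least 3 and 0.517% at least 4. The Mtf1 window and both Slc39a10 windows held 0. The antioxidant response element core TGACNNNGC is the motif of the oxidative stress regulator NRF2. It was found 1 time each in the Mt2 and Slc30a1 windows, 0 times in the Mt1 window, and in 12.4% of all windows. Bases outside the windows were not searched, so a count of 0 does not mean that a gene lacks the motif. The windows are rich in G and C (67.7% for Mt2, 60.7% for Mt1, 73% for Slc30a1), the shares were not matched for this, and a match is a string of letters, not a measured binding site. The RefSeq start lies 7 bases after the GENCODE M21 gene start in Mt1 and 46 before it in Mt2. It lies 14 after that start in Slc30a1 and 445 after it in Mtf1. The windows of Slc39a10 lie far from its M21 gene start, at 39234 bases after and 32924 before it. The starts of its 4 annotated transcripts were not compared with them, and their counts of 0 refer to those windows only.

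The libraries held 33276569 to 58697084 counts. No 2 libraries of the same group looked like 1 library deposited again (chi-square over degrees of freedom, 10.1 to 18.57). The share of mitochondrially encoded RNA was 0.82% ± 0.0447 in control and 2.15% ± 0.431 with piceatannol (SD, n = 3 each). The macrophage markers (8 of 8 tested, 2 rose and 6 fell) had summed levels of 18600 to 22570 CPM (counts normalised to a common library size) in control and 13200 to 14670 CPM in piceatannol libraries. Markers of dendritic cells (9 of 9 tested, 0 rose and 8 fell) summed to 4836 to 5159 CPM in control and 1445 to 1792 CPM after piceatannol. Neutrophil markers (9 of 10 tested, Ly6g not, and 9 fell) summed to 260.1 to 607.4 and 35.18 to 43.06 CPM. Stromal markers (6 of 6 tested, 6 fell) summed to 2255 to 2507 and 505.6 to 569.3 CPM. Most of the neutrophil sum came from S100a8 and S100a9, with control means of 148.9 and 230.7 CPM. B cell, T cell and erythroid markers summed to at most 3.825 CPM in any library. Of 5 tested mast cell or basophil markers (6 listed), 4 fell and Kit rose, from 21.5 ± 2.72 to 74.4 ± 9.40 CPM (SD, n = 3 each), so that their sum went from 23.83 to 30.11 up to 67.88 to 85.29 CPM. Beside these calls, 77% of all tested genes passed an adjusted p of 0.05, 38.8% as rises and 38.3% as falls. The part of the marker shifts in the results below was not tested. In bulk samples, fewer cells of a type and less RNA per cell cannot be told apart.

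All 6 genes rose with piceatannol, by 7.54-fold for Mt2, 4-fold for Mt1 and 2.8-fold for Slc30a1, and by 1.42-fold or less for Slc39a14, Mtf1 and Slc39a10. In each of the 6, the lowest piceatannol library lay above the highest control library. The comparison was broad: 77% of the 15380 tested genes passed an adjusted p of 0.05, 38.8% as rises and 38.3% as falls. The groups did not overlap in 79% of tested genes, with piceatannol higher in 39.9%. Rises of at least 2-fold, as in Mt1, Mt2 and Slc30a1, made up 17.5% of the tested genes. By size of rise, Mt2 ranked 406, Mt1 987 and Slc30a1 1613 among the tested genes, and Slc39a14, Mtf1 and Slc39a10 ranked 4724, 5736 and 5890. Across the tested genes the median log2 fold change lay at 0.011.

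**Figure D1:**
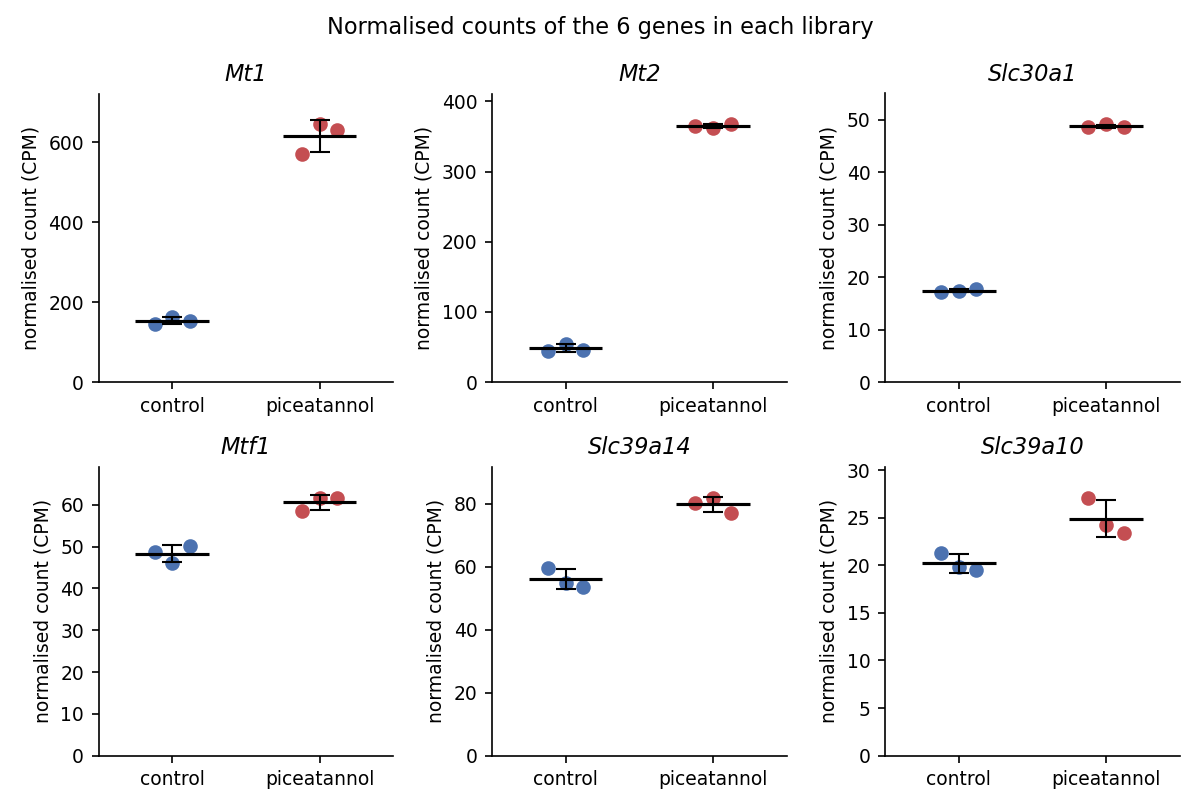
Normalised counts (CPM, linear axes from 0) of the 6 genes in each of the 3 control and 3 piceatannol libraries, with points for libraries, a long bar for the mean and whiskers for the SD. Mt2 sits between 361.7 and 367.1 CPM after piceatannol against 44.37 to 54.43 CPM in control, while Slc39a10 moves only from 19.48 to 21.27 up to 23.34 to 27.07 CPM.

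Mt2 encodes metallothionein 2 (ENSMUSG00000031762.7, GRCm38 chromosome 8, 94172664 to 94173568, plus strand). It had 44.37, 54.43 and 46.35 CPM in control replicates 1 to 3 and 364.8, 361.7 and 367.1 CPM in piceatannol replicates 1 to 3. The piceatannol libraries were nearly level with each other, with a mean of 364.5 ± 2.73 CPM against 48.4 ± 5.33 in control (SD, n = 3 each). Its log2 fold change was 2.91 ± 0.07 (SE; adjusted p = 6.27e-18 by the quasi-likelihood test of edgeR with Benjamini-Hochberg adjustment across all genes tested).

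Mt1, encoding metallothionein 1, lies next to Mt2 (ENSMUSG00000031765.8, chromosome 8, 94179082 to 94180327, plus strand). It had 145.6, 163.7 and 152.6 CPM in the control libraries and 570.3, 644.7 and 631.5 CPM in the piceatannol libraries. The lowest piceatannol value, in replicate 1, was still far above every control value. Its log2 fold change was 1.999 ± 0.068 (SE; adjusted p = 5.73e-16 by the edgeR test). Together Mt1 and Mt2 went from 202.4 ± 14.4 to 980 ± 39.1 CPM (SD, n = 3 each), 4.84-fold. Of the raw counts, they made up 0.01929% to 0.02197% of a control library and 0.09203% to 0.09993% of a piceatannol library.

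The balance within the pair differed between the groups. The level of Mt2 relative to Mt1, both in deposited FPKM (fragments scaled for gene length and depth), was 0.646, 0.704 and 0.644 in the control libraries and 1.36, 1.19 and 1.23 in the piceatannol libraries. The groups did not overlap, and the log2 ratio was higher by 0.92 in piceatannol libraries (exact permutation test, two-sided, p = 0.1, n = 3 each, the smallest p that 3 against 3 samples allow). With 1 library left out, the difference was 0.87 to 0.96.

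Which of the pair is the more abundant depends on the length used. The deposited FPKM values divide by all exonic bases of a gene: the lengths they imply, relative to Mt2, match those of the GENCODE M21 exon unions within 0.042% for the other 5 genes. These unions have 1246 bases in Mt1, the whole span of the gene, and 588 in Mt2. The main transcripts have 549 and 511 bases. On the deposited scale Mt1 led in control and Mt2 led after piceatannol. Rescaled to the main transcripts, the ratio of Mt2 to Mt1 was 0.326 to 0.357 in control and 0.603 to 0.687 in piceatannol libraries, so that Mt1 led in all 6. This rescaling was chosen after the data were seen, and it leaves the difference between the groups as it was.

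**Figure D2:**
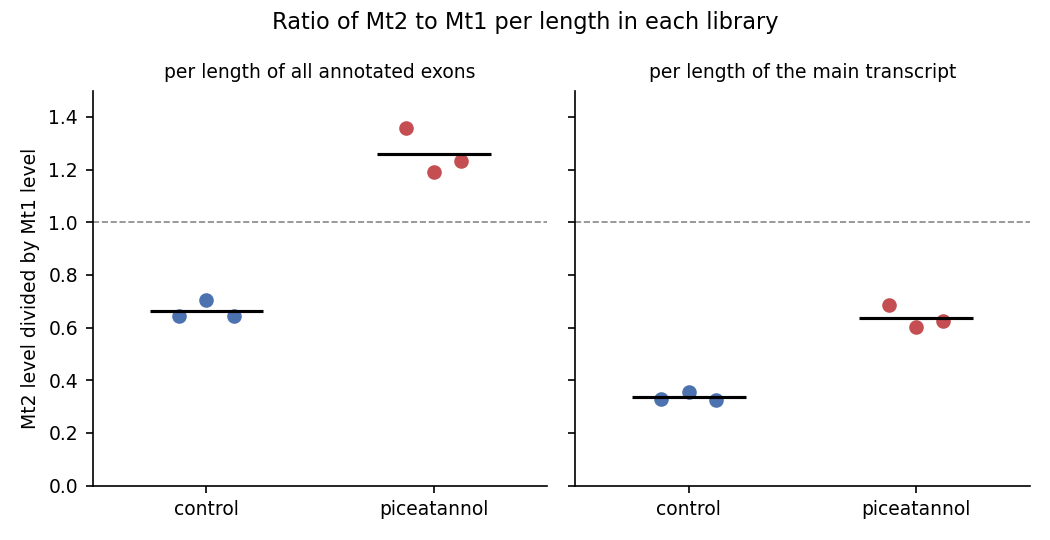
Ratio of the Mt2 level to the Mt1 level per length in each library (points, with the mean as a bar), dividing by all annotated exonic bases (left) or by the main transcript (right), on linear axes from 0. The piceatannol libraries lie above the control libraries in both panels, but they pass the dashed line of equal levels only on the left, at 1.19 to 1.36.

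Of the 588 exonic bases of Mt2, 432 are also exonic in Gm45774, an antisense gene that had 5 counts over all libraries. The strand setting of the counting and the treatment of reads in shared bases are not given, so the level of Mt2 is uncertain, and what this does to its rise was not tested. A BLAST search of the M21 transcripts, pseudogenes included, kept the longest single alignment of each gene at 80% identity or more. It found 0 other genes whose alignment covered at least 50% of the Mt1 or Mt2 main transcript. Matches split over several alignments were not added up. Gm45774 matched 212 bases of Mt2 (41.5%) at 100% identity. The longest such match between the pair covered 92 bases at 82.6% identity.

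Mt3 and Mt4 complete the cluster on chromosome 8. Mt3, known best from brain, passed the filter at a very low level, with 3, 9 and 13 counts in control and 32, 34 and 52 counts in piceatannol libraries. It rose by 2.55 ± 0.42 (SE) on the log2 scale (adjusted p = 1.41e-05 by the edgeR test; 0.71 with limma on log2(FPKM + 1), a scale that understates changes of low genes), from 0.161 ± 0.0902 to 0.951 ± 0.167 CPM (SD, n = 3 each). Mt4, known from stratified epithelia, had 0 counts in every library. Thus 3 of 3 tested metallothionein genes rose (median log2 fold change 2.55), beside 38.8% rises among all tested genes.

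The genes around the cluster moved in both directions. Of the 7 tested genes with a midpoint within 160 kb of that of Mt1, 4 are not metallothionein genes. Bbs2, of the ciliary BBSome, rose by 0.63 ± 0.13 (SE). Nudt21, of pre-mRNA 3′ end processing, fell (-1.29 ± 0.17). Ogfod1 (-0.03 ± 0.07, adjusted p = 0.715) and the nucleoporin gene Nup93 (0.07 ± 0.06, adjusted p = 0.327), the tested gene next to Mt1 on its other side, did not pass edgeR's quasi-likelihood test.

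**Figure D3:**
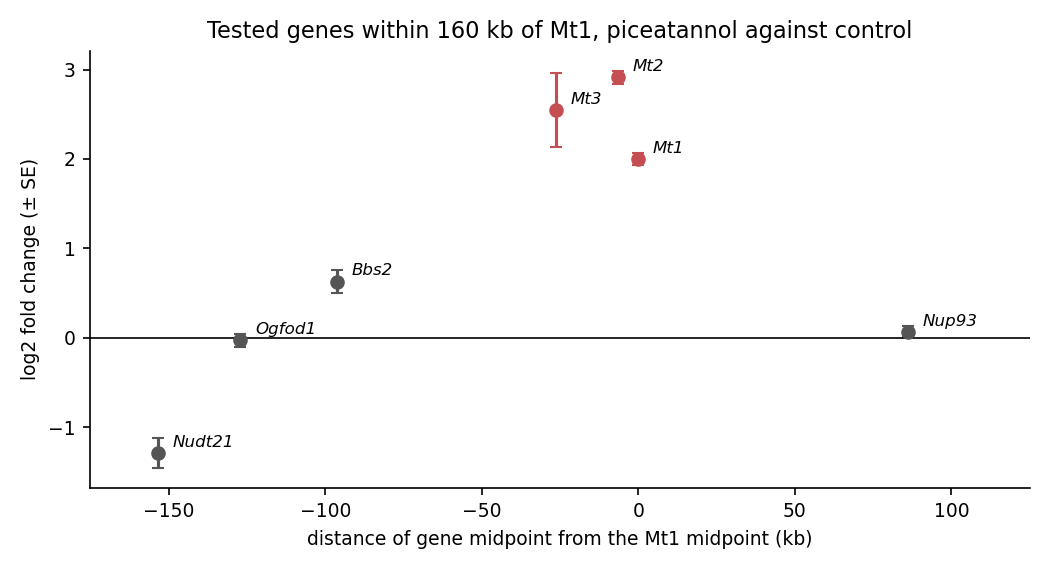
Log2 fold change of piceatannol against control (points, with SE bars) for the 7 tested genes within 160 kb of Mt1, plotted against the distance of each gene's midpoint from that of Mt1 in kb. The 3 metallothionein genes (red) lie between 1.999 and 2.91 and the 4 others (grey) between -1.29 and 0.63.

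Mtf1, the gene of the zinc-sensing factor itself (ENSMUSG00000028890.13, chromosome 4, 124802104 to 124849800, plus strand), moved little. It had 48.62, 46.09 and 50.09 CPM in control and 58.56, 61.58 and 61.62 CPM in piceatannol libraries. The gap between the groups was wider than the range within each. Its log2 fold change was 0.33 ± 0.06 (SE; adjusted p = 0.000104 by the edgeR test), a 1.25-fold rise. Of its 8907 exonic bases, 721 are shared with 1110065P20Rik on the other strand, which had 3936 counts in all.

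Slc30a1 encodes ZnT1, the zinc exporter of the plasma membrane (ENSMUSG00000037434.7, chromosome 1, 191906767 to 191913247, plus strand). Its values were the tightest of the 6 genes, at 17.24, 17.29 and 17.70 CPM in control and 48.54, 49.09 and 48.61 CPM in piceatannol libraries. Every piceatannol library thus stood well above every control library. The log2 fold change was 1.48 ± 0.07 (SE; adjusted p = 8.93e-14 by the edgeR test). Its antisense neighbour 1700034H15Rik, which shares 468 of its 5244 exonic bases, had 63 counts in all.

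Slc39a14 encodes ZIP14, an importer that also carries iron and manganese (ENSMUSG00000022094.15, chromosome 14, 70303469 to 70351425, minus strand). It had 59.53, 54.86 and 53.43 CPM in control and 80.19, 81.80 and 77.16 CPM in piceatannol libraries. The piceatannol libraries all lay above the control libraries. The log2 fold change was 0.51 ± 0.06 (SE; adjusted p = 3.95e-07 by the edgeR test).

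Slc39a10 encodes ZIP10, the importer whose gene MTF-1 is known to repress (ENSMUSG00000025986.6, chromosome 1, 46807544 to 46892852, minus strand). It had 21.27, 19.80 and 19.48 CPM in control and 27.07, 24.24 and 23.34 CPM in piceatannol libraries. The groups did not overlap, but the highest control and lowest piceatannol libraries were close. Its rise, 0.30 ± 0.08 (SE) on the log2 scale, was the smallest of the 6 (adjusted p = 0.00243 by the edgeR test), and over the alternative settings it ranged from 0.22 to 0.36 with adjusted p between 0.000558 and 0.0335. The part of MTF-1 in this change, and in the rises of Mt1, Mt2 and Slc30a1, was not tested.

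Per length, the order of the genes changed between the groups. In control, the deposited FPKM placed Mt1 (124 ± 7.67) and Mt2 (82.3 ± 9.32) far above Mtf1 (5.42 ± 0.212), Slc39a14 (5.30 ± 0.304), Slc30a1 (3.32 ± 0.0416) and Slc39a10 (3.31 ± 0.157) (SD, n = 3 each). The ranges of Mtf1 and Slc39a14 overlapped there, as did those of Slc30a1 and Slc39a10. After piceatannol, Slc30a1 led the 4 lower genes at 9.15 ± 0.0929 FPKM, above Slc39a14 (7.44 ± 0.241), Mtf1 (6.70 ± 0.209) and Slc39a10 (4.02 ± 0.309), with no overlap between neighbours. Rescaled to main transcripts, Slc39a14 stood above the other 3 in both groups, at 11.4 ± 0.649 and 15.9 ± 0.517, since its main transcript has 4926 of the gene's 10550 exonic bases.

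**Figure D4:**
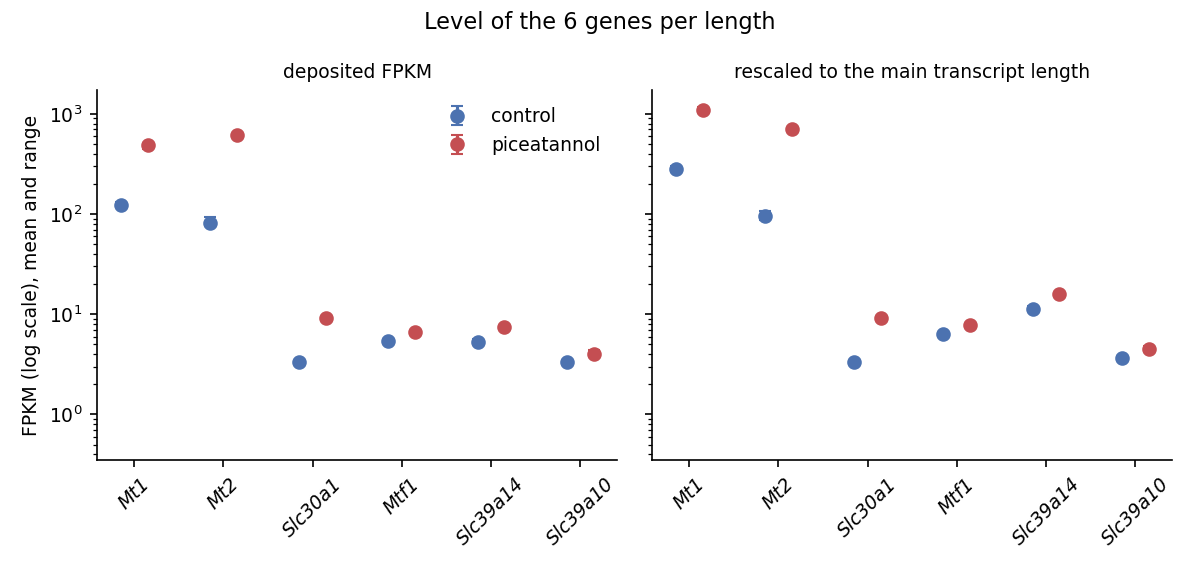
Level of the 6 genes per length (log axis; point for the mean of 3 libraries, bar for their range) in control and piceatannol libraries, as deposited FPKM (left) and rescaled to the main transcript (right). Slc30a1 goes from 3.32 to 9.15 FPKM, above Slc39a10 after piceatannol in both panels; in control their ranges overlap on the left, and on the right Slc30a1 (at most 3.37) lies below Slc39a10 (at least 3.536).

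The wider Slc30 family of zinc exporters moved in both directions. Of 10 genes, 6 were tested: 3 rose, 2 fell and 1 did not pass, which is near the 77% of all tested genes that passed, with a median log2 fold change of 0.14. Besides Slc30a1, Slc30a9 rose (0.78 ± 0.06, SE), from 50.72 to 57.85 CPM in control up to 90.49 to 96.27 CPM. Slc30a6, of the Golgi, rose by 0.41 ± 0.09. Slc30a4, which loads zinc into vesicles, fell (-0.88 ± 0.08), from 72.62 to 88.73 CPM down to 39.48 to 44.83 CPM. Slc30a7, which loads the early secretory pathway, fell as well (-0.55 ± 0.06). Slc30a5, of the same pathway, had a log2 fold change of -0.13 ± 0.07 (adjusted p = 0.0804 by the edgeR test). It passed without piceatannol replicate 1 (adjusted p = 0.0256, range 0.0256 to 0.32 over the alternatives). Slc30a2, Slc30a3, Slc30a8 and Slc30a10 were too low to test.

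The Slc39 family of zinc importers was split as well. Of 14 genes, 13 were tested: 4 rose, 6 fell and 3 did not pass, a share passing like that of all genes, with a median log2 fold change of -0.07. With upper-quartile scaling 5 rose and 4 fell, and without piceatannol replicate 1 the median was 0.015. Slc39a2 rose most, by 1.44 ± 0.11 (SE) on the log2 scale, from 5.4 to 6.109 CPM in control up to 13.74 to 17.72 CPM. Slc39a6, for a plasma membrane importer, rose by 0.88 ± 0.07, and Slc39a14 and Slc39a10, above, were the other 2 rises.

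Among the falls, Slc39a8, encoding ZIP8, which also carries manganese, went from 2.392 to 4.58 CPM down to 1.147 to 1.425 CPM (-1.36 ± 0.23, SE). Slc39a11 fell (-1.21 ± 0.08), from 50.65 to 56.46 CPM down to 21.62 to 27.02 CPM. Slc39a13, of the Golgi (-0.67 ± 0.08), and Slc39a1, of the plasma membrane (-0.42 ± 0.06), fell too. Slc39a9 (-0.18 ± 0.06) and the endoplasmic reticulum gene Slc39a7 (-0.24 ± 0.10) fell by little. The Slc39a7 call (adjusted p = 0.0331 by the edgeR test) was lost without control replicate 3 (adjusted p = 0.202) and without piceatannol replicate 1 (adjusted p = 0.0962), with a range of 0.016 to 0.202 over the alternatives. With upper-quartile scaling neither it (adjusted p = 0.0919) nor Slc39a9 (adjusted p = 0.0614, range 0.00481 to 0.0649) passed. Slc39a3 (-0.07 ± 0.08), Slc39a4 (0.16 ± 0.11) and Slc39a12 (0.81 ± 0.37) did not pass, and without piceatannol replicate 2 Slc39a4 did (adjusted p = 0.028, range 0.028 to 0.709). Slc39a12 passed without piceatannol replicate 1 (adjusted p = 0.0409) and with upper-quartile scaling (adjusted p = 0.0414, range 0.0409 to 0.25).

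**Figure D5:**
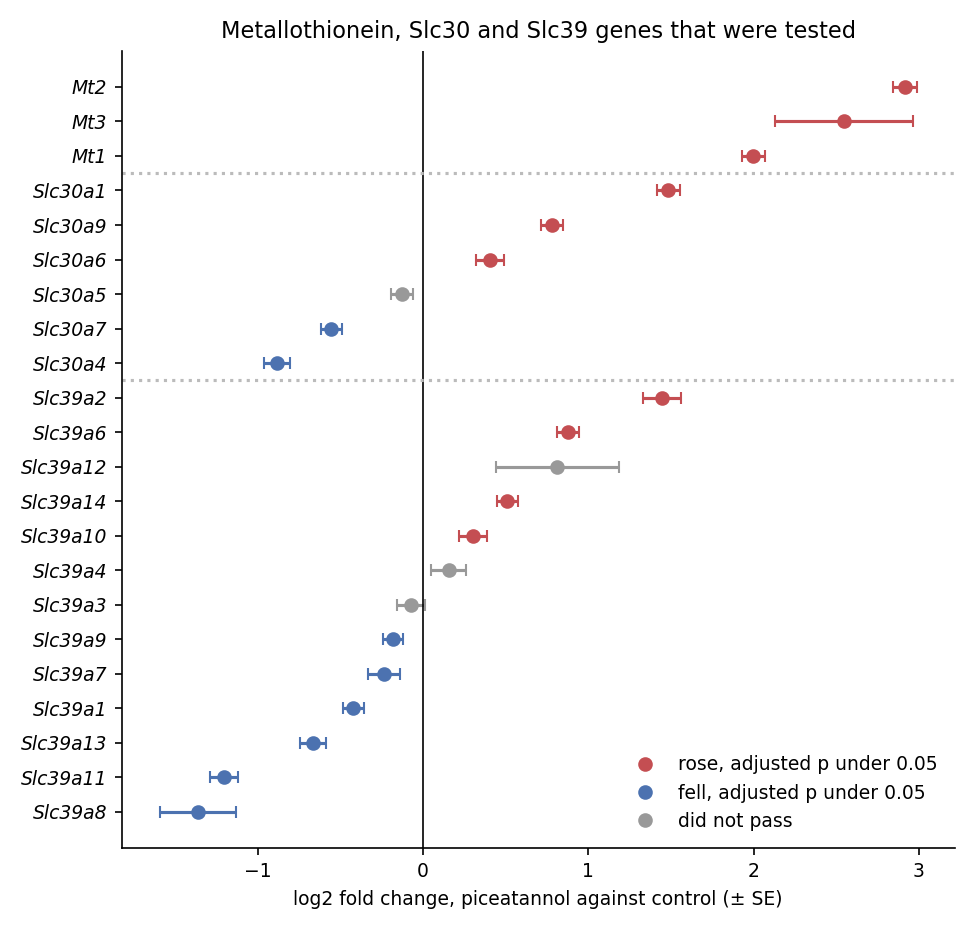
Log2 fold change of piceatannol against control (points, with SE bars) for the 22 tested genes of the metallothionein, Slc30 and Slc39 families, separated by dotted lines and coloured by the outcome of edgeR's test at an adjusted p of 0.05. The metallothionein genes lie between 1.999 and 2.91, while the transporter families run from -0.88 to 1.48 and from -1.36 to 1.44.

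Other genes of metal handling are given for context. Of 7 further genes reported as MTF-1 targets, 4 rose and 3 fell (median log2 fold change 0.63), beside the 77% of all tested genes that passed, 38.8% as rises and 38.3% as falls. They included the iron exporter gene Slc40a1 at 3.25 and Ndrg1 at 1.99, as well as Selenoh at -1.49 and the mitochondrial thioredoxin gene Txn2 at -0.93. Of 17 tested copper handling genes, 7 rose and 6 fell (median 0.08), a share close to the 77% of all tested genes. Among them the zinc- and copper-binding superoxide dismutase gene Sod1 (0.76) and the copper chaperone gene Cox17 (0.87) rose, while the copper transporter gene Slc31a2 (-1.26) and the chaperone gene Atox1 (-0.63) fell.

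Of 6 tested manganese and divalent metal transporter genes, 3 rose and 2 fell (median 0.24). Of 6 tested genes for other zinc-related proteins, 2 rose and 3 fell (median -1.15). In each list 5 of 6 passed, beside the 77% of all tested genes that passed, 38.8% as rises and 38.3% as falls. The phagosomal transporter gene Slc11a1 (2.08) and its relative Slc11a2 (1.78) rose, while the Golgi gene Tmem165 (-0.20) and Slc39a8 fell. Among the zinc-related genes, Cbwd1 (0.53) and Trpm7 (0.20) rose and the zinc receptor gene Gpr39 (-2.28) fell. Gpr39 was very low, at 115 counts over the control and 19 over the piceatannol libraries (means of 0.76 and 0.15 CPM). The call of Trpm7 was lost without control replicate 2 (log2 fold change 0.13, adjusted p = 0.0889) and without piceatannol replicate 1 (adjusted p = 0.0672), with a range of 0.00229 to 0.126 over the alternatives (edgeR, limma and DESeq2). S100a9, of the zinc-binding neutrophil protein calprotectin, fell (-4.56 ± 0.48, SE), from a mean of 230.7 CPM in control to 9.67 CPM. It is itself on the neutrophil marker list, as is S100a8 (148.9 to 26.3 CPM), and the pair made up most of that list's sum. The other tested neutrophil markers, with control means of at most 12.5 CPM, fell too. The part of those markers in its fall was not tested.

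Glucocorticoids are a known inducer of metallothionein genes apart from metals. Of 9 tested genes known to respond to them, 7 rose and 2 fell (median log2 fold change 1.13), beside the 77% of all tested genes that passed, 38.8% as rises and 38.3% as falls. Per1 (2.51) and Dusp1 (1.79) rose, and Fkbp5 (-1.83) and Cd163 (-2.46) fell. Cd163 was very low, at 71 counts over the control and 10 over the piceatannol libraries (means of 0.45 and 0.08 CPM). Whether glucocorticoids had a part in the rises of Mt1 and Mt2 was not tested. These lists share genes with the families above or with marker lists, and they carry no test as lists.

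The genes closest to Mt2 in pattern, by Euclidean distance of log2 CPM centred on the control mean over the 6 libraries, were Plpp3 (distance 0.165, log2 fold change 2.86), Rasgef1b (0.23, 2.85) and Gde1 (0.291, 2.96). Those closest to Slc39a10 were Arl8b (distance 0.0534, log2 fold change 0.29), Morf4l1 (0.0636, 0.31) and Plekha3 (0.0656, 0.28). The search covered 10042 genes with a mean log2 CPM of 2 or more, and a small distance means a like change between the groups with a like spread within them.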

How the data were processed

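RNA was measured by sequencing in 3 control and 3 piceatannol libraries, prepared with Illumina's TruSeq chemistry (1 µg input), per the labels' protocols. For each gene symbol and library the authors deposited a raw count and an FPKM value. Per the submitters' processing notes, bcl2fastq, STAR, featureCounts and DESeq2 were used with mm10 and GRCm38; the sources used here name neither the annotation nor the strand setting. The deposited FPKM were scaled by size factors of the median-of-ratios kind (0.7229 to 1.281), not by totals (0.7251 to 1.279).

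Counts were tested with edgeR 4.0.16 (R 4.3.3): filterByExpr with a minimum count of 10 (15380 genes), TMM factors (0.9848 to 1.016), the quasi-likelihood test with robust dispersion and no covariate, two-sided, Benjamini-Hochberg over all genes tested, threshold 0.05. CPM use the TMM-scaled totals. A standard error is the log2 fold change divided by the square root of F. Levels between genes were compared in FPKM; the ratio of Mt2 to Mt1 was tested by exact permutation. Positions and lengths are from GENCODE M21, similarity from BLAST 2.17.0, promoters from RefSeq (GRCm38.p6). The edgeR fit was also run on simulated counts in which few genes changed, unlike here. That run cannot speak for its error rates in these data. Alternatives were other scaling factors, filters, DESeq2 1.42.0, limma 3.58.1 with voom or on log2(FPKM + 1) and log2(FPKM + 0.1), a replicate block, a threshold of 0.01, a 2-fold minimum and leaving out each library.

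The 6 genes and all lists were chosen with earlier results of these data known. S100a8 was named after its values were seen. Named were the 6 genes, tested members of the metallothionein, Slc30 and Slc39 families, of each other metal or glucocorticoid list the 2 smallest p in each direction, genes within 200 kb of Mt1 (shown to 160 kb, a limit set after the data were seen; the rest is not reported here), and the 3 genes closest in pattern to Mt2 and to Slc39a10; Kit and Ly6g, the genes that share exons with the 6, and Mt4 and untested transporters were named after their values were seen.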

Additional observations from a re-analysis of the deposited data

How the results depend on the processing

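The rises of all 6 genes kept their direction and passed the threshold under each of the 19 alternatives run for them (other scalings, filters, tests and units, the stricter threshold, the block, and leaving out each library). With at least a 2-fold change required, 5234 of all tested genes passed, against 11846 without it. Mt1, Mt2 and Slc30a1 met this minimum, and Slc39a14, Mtf1 and Slc39a10, at 1.42-fold or less, did not. Dividing by main transcript lengths, chosen after the data were seen, moved the mean log2 ratio of Mt2 to Mt1 from -0.59 to -1.57 in control and reversed it from 0.33 to -0.65 in piceatannol libraries. Slc39a3, which passed in none of these fits, went from -0.07 to between -0.1472 and 0.0146 with 1 library left out, the last without piceatannol replicate 1. With a filter of 5 CPM in 3 libraries, 3 manganese and divalent metal transporter genes passed in place of 5, with fewer of them tested. With the replicate number as a block, 12012 genes passed, 56 of the listed genes in place of 55 (Slc30a5 added, adjusted p = 0.042 by edgeR), and the exact permutation of the Mt2 to Mt1 ratio within pairs gave p = 0.25, the smallest that 3 pairs allow. Same-numbered libraries had correlations of their deviations of 0.0369 to 0.0696, and each library correlated best with its own number. These correlations are small and do not settle whether the numbers pair the samples. On log2(FPKM + 1), a scale that understates low genes, log2 changes were smaller by over 1.5 times for Mt3 (0.71 against 2.55), Slc39a8 (-0.30 against -1.36), Gpr39 (-0.25 against -2.28), Cd163 (-0.10 against -2.46) and Slc39a12 (0.13 against 0.81, passing in neither), with the direction and call of each kept. Depth limits Mt3, Mt4, Gpr39, Cd163, Slc39a12 and the untested transporters.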
